A study of Mus musculus with 6 samples.

Results

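The genes described here encode the receptors for serotonin, dopamine, noradrenaline, histamine, acetylcholine, adenosine and melatonin. They were chosen by gene symbol alone, as every listed gene whose symbol begins with Htr1 to Htr7, Drd1 to Drd5, Adra1, Adra2, Chrna, Chrnb, Chrnd, Chrne, Chrng or Adora1 to Adora3, or is one of the Adrb, Chrm, Hrh and Mtnr1 receptor symbols. The rule took 55 of the 17645 genes listed in at least 1 library. Mtnr1b, Hrh4, Chrnd and Chrng, which the rule would also take, are not among the 55 and are not analysed here.

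The tissue was the suprachiasmatic nucleus (SCN), the paired nucleus of the hypothalamus that acts as the main circadian pacemaker. It was punched out of frozen brain sections of female C57BL/6 mice that were killed in the dark at zeitgeber time (ZT) 12 to 14, counted in hours from lights on, and each RNA-seq library was made from pooled RNA of 2 SCN. By their titles the libraries were V replicates 2, 3 and 4 and r1r2V replicates 1, 4 and 5. The series is described as a knockout, in GABAergic neurons, of the clock repressors REV-ERBα and REV-ERBβ. The r1r2V libraries were therefore read as the knockout and the V libraries as its control. The labels spell out neither name and give no age, no Cre driver and no account of which alleles the V animals carried. They also do not say whether the pools came from different animals, so every p-value here measures only the spread between these samples.

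Most of these receptors couple to G proteins: Gs raises cyclic AMP in the cell, Gi lowers it and Gq releases stored calcium. The nicotinic receptors and the serotonin receptor built from Htr3a and Htr3b are instead ion channels that open when the transmitter binds. In the SCN, serotonin fibres from the raphe and melatonin from the pineal gland are known to act on the phase of the clock, and serotonin and adenosine are known to modulate light input from the retina.

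Total expected counts (estimated reads, which need not be whole) ran from 15729603 to 17780928 per library. The receptor genes took 0.0601% to 0.0678% of them, and 53 to 55 of the 55 genes were listed in each library. Markers of SCN neurons summed to 1994 to 2152 CPM (counts scaled by library size) in V and 1878 to 2454 in r1r2V, most of it Scg2 (1317 to 1971 CPM), and those of GABA neurons to 1167 to 1320 and 1086 to 1353. Most of the GABA sum was Gad1 and Gad2, which overlapped between groups. Slc32a1, the other GABA marker, had 150, 141 and 141 CPM in V and 129, 116 and 117 in r1r2V. It lay below V in all r1r2V libraries but was not called (adjusted p = 0.314). None of the 11 SCN markers was called, though Rgs16 lay above V in all r1r2V libraries (adjusted p = 0.0588), Lhx1 lay below (adjusted p = 0.546), and Prok2 ranged from 1.75 to 20.5 CPM within r1r2V. Markers of neighbouring hypothalamic neurons, which a punch can also take, varied more within r1r2V, from 1047 CPM in replicate 4 to 2060 in replicate 5. In V they summed to 1540 to 1786 CPM, and 0 of the 9 tested markers were called. Among them, Pmch alone went from 1.67 CPM in r1r2V replicate 4 to 581 in replicate 5. The genes of the 2 repressors, Nr1d1 and Nr1d2, were not lower but higher in all libraries labelled r1r2V. Nr1d1 had 56.7, 62.5 and 57.0 CPM in V and 196, 157 and 147 in r1r2V. It was called higher by edgeR's quasi-likelihood test (ratio 2.84, adjusted p = 8.24e-05). Nr1d2 had 177, 179 and 168 CPM in V and 229, 275 and 222 in r1r2V, and was not called (ratio 1.39, adjusted p = 0.0553). The direction of every comparison below therefore rests on the titles. The exons removed are not named in the labels. In punched tissue, fewer cells of a type and less RNA per cell cannot be told apart.

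No receptor gene passed the test between the groups. Of the 55 genes, 41 had enough counts to be tested, and edgeR's quasi-likelihood test called 0 of them higher and 0 lower at an adjusted p under 0.05, where over all 14438 genes tested 0.416% were called (0.298% higher and 0.118% lower). The smallest adjusted p among the receptors was 0.489, and DESeq2 and limma-voom also called 0. At an unadjusted p under 0.05 there were 2 receptors, Htr3a and Hrh3, which is 4.88% of the tested ones beside 7.58% of all genes. Without r1r2V replicate 5 there were 7 such receptors (17.1%, beside 11.2% of all genes in that fit) and without r1r2V replicate 4 there were 4 (9.76%, beside 7.13%). There was 1 (2.44%) without V replicate 2, V replicate 4 or r1r2V replicate 1, beside 4.55%, 4.24% and 13.7% of all genes. The calls over all genes, 43 higher and 17 lower, dropped to 20 and 7 without V replicate 2, to 20 and 8 without V replicate 3 and to 19 and 7 without V replicate 4.

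The 3 r1r2V libraries lay above all 3 V libraries for 1 tested receptor, Chrna1 (2.44%, beside 6.87% of all genes), and below them for 3, Htr3a, Adra1b and Htr1d (7.32%, beside 7.63%). The share below V was close to that of all genes, and the share above V rests on 1 gene. The log2 fold change, r1r2V minus V throughout, was positive for 15 tested receptors and negative for 26. The median was -0.02, against 0.01 over all genes tested, and 36.6% were positive against 52.5%. Leaving out r1r2V replicate 4 turned the receptor median to above 0, at 0.0048. That library had the lowest value of the 6 for 16 of the 41 receptors (39.0%, against 24.8% of all genes), and r1r2V replicate 5 the highest for 11 (26.8%, against 16.7%). These are the same libraries that had the lowest and highest sums of neighbouring hypothalamic neuron markers. The high sum of replicate 5 was largely Pmch, with 581 CPM there against 1.67 to 213 in the other libraries. In replicate 5 Slc17a6 (295 CPM) was also the highest of the 6, whereas Oxt (797) lay within the V range and Trh (270) was the lowest. The part of those cells in the receptor values was not tested.

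The interval of each difference shows what the data bound. For 21 of the 41 receptors (51.2%) the 95% interval of the fold change lay within 1.5-fold either way, as it did for 80.3% of all genes tested. For 34 (82.9%) it lay within 2-fold, against 93.7% of all genes. The 7 whose interval reached past 2-fold were Htr3a, Chrm4, Chrm5, Mtnr1a, Adora3, Chrna1 and Adra2b. The median standard error of the log2 fold change was 0.16 for the 28 receptors with a mean of at least 1 FPKM (fragments scaled by transcript length and by library size) and 0.28 for the 13 tested ones below it. Standard errors were thus larger at low levels. On chromosomes 11 and 14, which carry Nr1d1 and Nr1d2, 3 and 2 receptors were tested, with log2 fold changes from -0.15 to 0.15 and from 0.13 to 0.32.

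The labels do not say whether strand was used in counting, so reads from a receptor gene and from exons on the opposite strand cannot be told apart where they overlap. In the GENCODE annotation this touched 9 tested receptors: Adora1, Adrb3, Chrm1, Chrm2, Chrnb2, Drd5, Hrh2, Hrh3 and Htr1b, with 142 to 1531 bp shared. Chrnb2 shares 1365 bp of exon with Adar, an RNA-editing enzyme gene with 3695 to 4291 counts per library, although the RefSeq extents of the pair share only 8 bp. Adora1 shares 1162 bp with Mybph, which had 0 to 2.09 counts. Hrh3 shares 349 bp with Gm17180 and Drd5 1531 bp with Gm26560. In RefSeq, the extents of Chrna3 and Chrna5 also share 1304 bp.

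**Figure D1:**
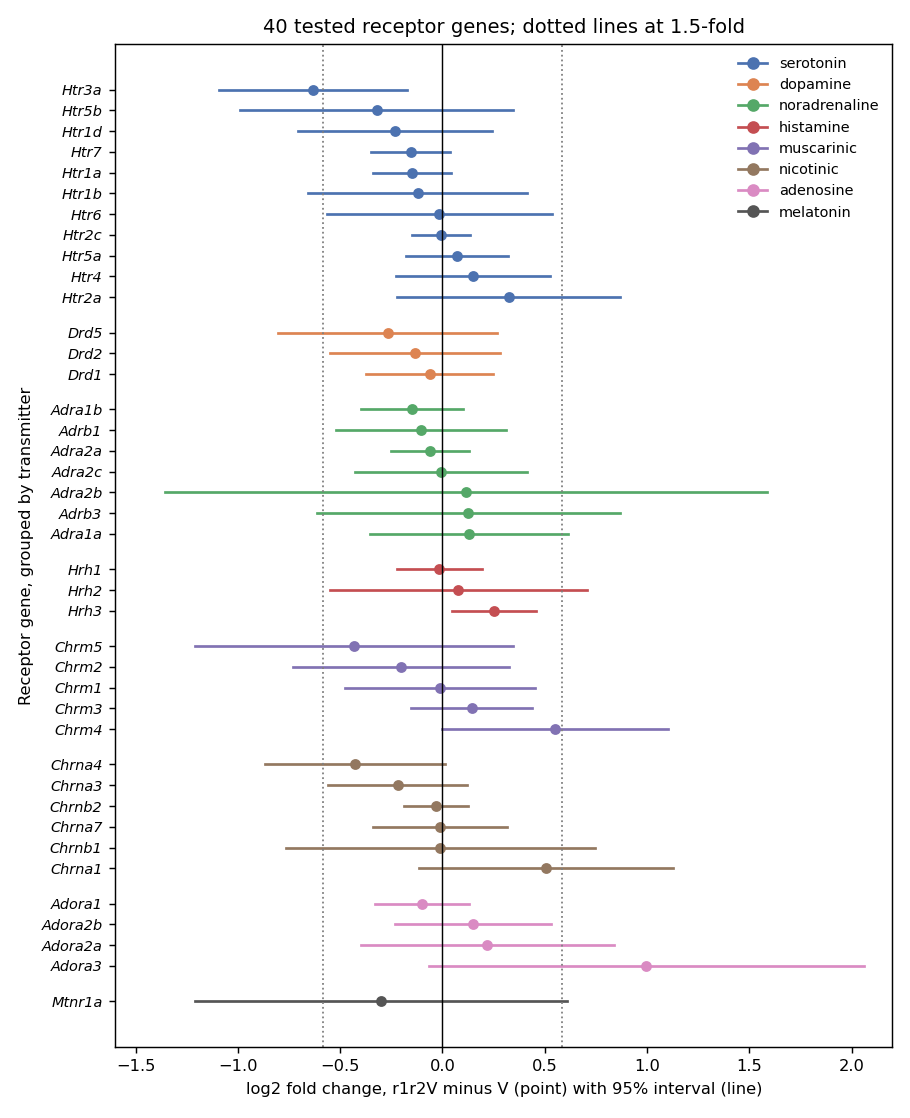
Log2 fold change (r1r2V minus V) of 40 of the 41 tested receptor genes as a point with its 95% interval as a line, grouped and coloured by transmitter, with dotted lines at 1.5-fold. The intervals of Htr3a and Hrh3 exclude 0 before adjustment, none of the 41 genes passed after adjustment, and the intervals of Adora3 and Adra2b reach furthest in the positive direction.

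On the FPKM scale, which allows levels of different genes to be compared, a few receptors held most of the signal. Hrh3, Htr2c, Chrnb2 and Adora1 together made 46.6% of the summed receptor FPKM, and the 6 genes with a mean of at least 10 FPKM, which add Htr7 and Adra2a, made 59.4%. A further 22 genes between 1 and 10 FPKM made 35.6%, and the other 27 made 5.07%. The summed FPKM of the receptors was 184.2, 184.04 and 183.54 in V and 183.69, 166.89 and 191.93 in r1r2V. The V libraries were nearly equal, while r1r2V replicates 4 and 5 lay below and above all of them.

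In V, the order began with Hrh3 at 26.1 ± 1.59 FPKM (SD, n = 3), Htr2c at 21.7 ± 0.819, Chrnb2 at 18.1 ± 0.168 and Adora1 at 17.4 ± 1.13. The libraries of Hrh3 and Htr2c did not overlap, nor did those of Htr2c and Chrnb2, whereas Chrnb2 and Adora1 overlapped. Next came Htr7 at 13.2 ± 1.08 and Adra2a at 11.03 ± 1.17 FPKM (SD, n = 3), which overlapped each other, and then Hrh1 at 9.51 ± 0.191, apart from both of its neighbours. Chrna4 (5.85 ± 1.07), Htr1a (5.03 ± 0.344), Drd2 (4.797 ± 0.722) and Adora2b (4.00 ± 0.178) formed a run in which each gene overlapped the next.

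**Figure D2:**
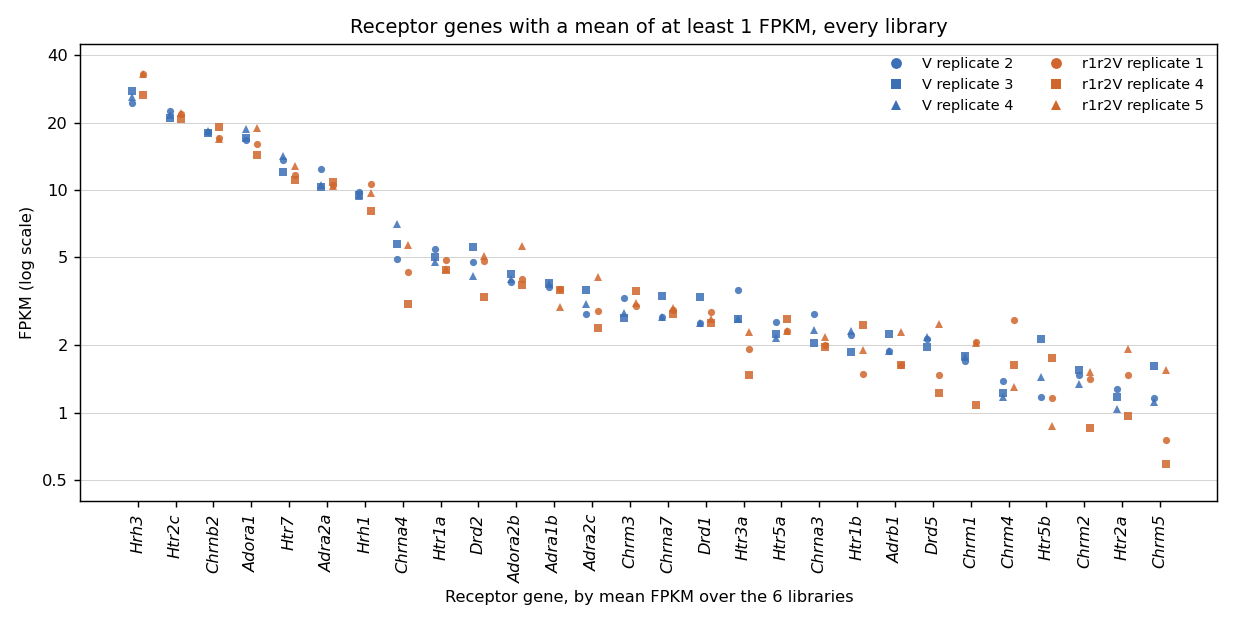
FPKM on a log axis of the 28 receptor genes with a mean of at least 1 FPKM, 1 point per library, with V in blue and r1r2V in orange. Hrh3 is the highest gene and Chrm5 the lowest shown, and at most genes the points of the 2 groups intermingle.

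Serotonin receptors were the largest class by level, with 29.0 ± 1.11% of receptor FPKM in V (SD, n = 3), 14 genes listed and 11 tested. Of these 11, 0 passed, 3 log2 fold changes were positive and 8 negative, and the median was -0.12. Htr2c, a Gq-coupled receptor, lies on the X chromosome (146962464 to 147197277, GRCm38, plus strand). Its libraries had 106, 97.3 and 101 CPM in V and 101, 98.0 and 104 in r1r2V. The groups overlapped closely. The log2 fold change was -0.01 (SE 0.06), and its 95% interval, a ratio of 0.901 to 1.10, was the narrowest among the receptors. The choroid plexus is rich in this receptor. The 5 markers of ependyma and choroid plexus, 0 of them called, summed to 81.6 to 90.3 CPM in V and 72.04 to 83.7 in r1r2V, with 1 fold change positive and a median log2 fold change of -0.04. The positive one was Ttr, a choroid plexus gene, with 0.677, 0.676 and 0.444 CPM in V and 2.79, 2.53 and 0.350 in r1r2V. Most of the marker sum was Foxj1 (32.7 to 47.8 CPM) and Ccdc153 (30.8 to 35.0), and Kl and Folr1 had log2 fold changes of -0.04 and -0.22. The part of the choroid plexus in the Htr2c values was not tested.

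Htr7 and Htr1a have both been studied as receptors through which serotonin shifts the SCN clock. Htr7, coupled to Gs (chromosome 19, 35958415 to 36058133, minus strand), had 41.7, 36.8 and 43.3 CPM in V and 35.3, 34.4 and 39.6 in r1r2V. Replicates 1 and 4 of r1r2V lay below every V library and replicate 5 lay among them (log2 fold change -0.15, SE 0.09, adjusted p = 0.686). For Htr1a, coupled to Gi (chromosome 13, 105443693 to 105448133, plus strand), the values were 23.5, 21.5 and 20.5 CPM in V and 20.7, 19.0 and 19.4 in r1r2V. Only r1r2V replicate 1 overlapped V, just above its lowest library (log2 fold change -0.15, SE 0.09, adjusted p = 0.695). The 95% interval of the ratio was 0.786 to 1.03 for Htr7 and 0.790 to 1.03 for Htr1a.

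Htr3a, the subunit that can form a serotonin-gated channel by itself, had the smallest p of any receptor. It lies on chromosome 9 (48899213 to 48911152, minus strand), with Htr3b alongside at 48935008 to 48964990. The libraries had 7.05, 5.18 and 5.20 CPM in V and 3.77, 2.93 and 4.55 in r1r2V, from 125, 92 and 82 counts against 65, 51 and 78. All 3 r1r2V libraries lay below all 3 V libraries, and V replicate 2 was the highest of the 6. From these the log2 fold change was -0.63 (SE 0.21), a ratio of 0.644 with a 95% interval of 0.469 to 0.886. The gene did not pass over all genes (adjusted p = 0.489), and with single libraries left out the log2 fold change ran from -0.80 to -0.47. Htr3b, its partner subunit, had 1 to 4 counts in every library and was not tested.

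The other serotonin receptors gave no call either. Htr5a, coupled to Gi and known in the SCN, had 14.0, 12.2 and 11.9 CPM in V and 12.6, 14.6 and 12.9 in r1r2V, with a log2 fold change of 0.07 (SE 0.11). Htr1b, a Gi-coupled receptor known on the endings of retinal fibres, had 2.37, 1.97 and 2.47 CPM in V and 1.57, 2.64 and 2.04 in r1r2V (log2 fold change -0.12, SE 0.24). In both genes the groups overlapped. Htr1d was unusual in that V was almost without spread, at 2.65, 2.65 and 2.66 CPM, with r1r2V below at 2.44, 1.72 and 2.62. From 30 to 47 counts per library, its log2 fold change was -0.23 (SE 0.21, adjusted p = 0.795). Htr5b, Htr2a, Htr4 and Htr6 had log2 fold changes of -0.32, 0.32, 0.15 and -0.02, with overlapping groups.

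Histamine receptors made 19.7 ± 0.659% of receptor FPKM in V (SD, n = 3) from only 3 genes. Hrh3, coupled to Gi, is known as the receptor by which histamine neurons restrain their own release, and it also acts on other neurons. The gene lies on chromosome 2 (180099465 to 180104484, minus strand). Hrh3 had 62.4, 69.9 and 66.2 CPM in V and 83.4, 68.0 and 85.04 in r1r2V. Replicates 1 and 5 of r1r2V lay above every V library, and replicate 4 fell within the V range. The log2 fold change was 0.25 (SE 0.09), a ratio of 1.19 with a 95% interval of 1.03 to 1.37, and it did not pass (adjusted p = 0.572). Over the fits with single libraries left out it ran from 0.19 to 0.35, with adjusted p from 0.160 to 1.0 over every alternative. The lowest of these came without r1r2V replicate 4.

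Hrh1, the Gq-coupled histamine receptor that excites many neurons, had 34.7, 33.4 and 33.7 CPM in V and 37.0, 28.8 and 34.9 in r1r2V (chromosome 6, 114397936 to 114483298, plus strand). The V libraries were tight, and r1r2V replicates 1 and 4 lay on either side of them (log2 fold change -0.02, SE 0.09, 95% interval of the ratio 0.856 to 1.14). Hrh2, coupled to Gs, had 0.958 to 1.69 CPM in V and 1.26 to 1.74 in r1r2V, with a log2 fold change of 0.08 (SE 0.28).

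Of the noradrenaline receptors, 9 were listed and 8 tested, with 0 passing, 4 positive and 4 negative. Adra2a, a Gi-coupled receptor that restrains noradrenaline release (chromosome 19, 54045259 to 54048982, plus strand), was the most abundant. Its libraries had 46.2, 37.9 and 39.0 CPM in V and 38.5, 40.6 and 38.8 in r1r2V. V replicate 2 stood above the other 5 libraries, which were close together, and the log2 fold change was -0.06 (SE 0.09). Adra1b, coupled to Gq, had 11.4, 11.9 and 11.7 CPM in V and 11.03, 11.2 and 9.38 in r1r2V. Its groups did not overlap, by a margin that was small beside the spread of r1r2V (log2 fold change -0.15, SE 0.11, adjusted p = 0.756). Adra2c, Adrb1, Adra1a and Adrb3 overlapped between groups, with log2 fold changes of -0.01, -0.10, 0.13 and 0.13. Adra2b, at 1 count in V replicate 3 and 6 to 18 in the other libraries, had the largest standard error of all the receptors, 0.66.

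Dopamine receptors held 5.38 ± 0.571% of receptor FPKM in V (SD, n = 3). Drd2, coupled to Gi (chromosome 9, 49340360 to 49408177, plus strand), had 6.88, 8.0 and 5.96 CPM in V and 6.85, 4.83 and 7.34 in r1r2V. Drd1, coupled to Gs and known for dopamine responses of the developing SCN (chromosome 13, 54051183 to 54055658, minus strand), had 8.58, 11.2 and 8.57 CPM in V and 9.52, 8.62 and 8.98 in r1r2V. In both genes V replicate 3 was the highest library and the groups overlapped. The log2 fold changes were -0.14 (SE 0.19) for Drd2 and -0.06 (SE 0.14) for Drd1, with 95% intervals of the ratio of 0.683 to 1.21 and 0.772 to 1.19. Drd5, also Gs-coupled, had 6.26, 5.69 and 6.34 CPM in V and 4.24, 3.62 and 7.34 in r1r2V, so that replicates 1 and 4 of r1r2V lay below V and replicate 5 above it (log2 fold change -0.27, SE 0.24).

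Among nicotinic receptor subunits, 14 were listed and only 6 tested, with 0 passing, 1 positive and 5 negative. Chrnb2 and Chrna4 together form the main high-affinity nicotinic receptor of the brain. Chrnb2 (chromosome 3, 89753448 to 89764632, minus strand) had 96.9, 94.6 and 96.8 CPM in V and 89.1, 102 and 90.9 in r1r2V. Replicate 4 of r1r2V lay above V and replicates 1 and 5 below it (log2 fold change -0.03, SE 0.07, 95% interval of the ratio 0.877 to 1.09).

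Chrna4 (chromosome 2, 181022311 to 181043579, minus strand) had 21.5, 25.0 and 30.8 CPM in V and 18.6, 13.7 and 25.1 in r1r2V. Replicates 1 and 4 of r1r2V lay below every V library, and replicate 5 lay within the V range. The log2 fold change was -0.43 (SE 0.20), a ratio of 0.743 with a 95% interval of 0.548 to 1.01, and it did not pass (adjusted p = 0.660). DESeq2 and limma-voom placed it under an unadjusted p of 0.05 but also made no call. The same library, r1r2V replicate 4, was thus the highest for Chrnb2 and the lowest for Chrna4.

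Chrna7, which forms a calcium-permeable channel by itself (chromosome 7, 63098692 to 63212526, minus strand), had 5.36, 6.59 and 5.33 CPM in V and 5.69, 5.57 and 5.89 in r1r2V. The r1r2V libraries lay inside the V range (log2 fold change -0.01, SE 0.15). Chrna1, best known as a muscle subunit, had 0.959, 0.620 and 0.825 CPM in V and 1.10, 1.21 and 1.11 in r1r2V, from 11 to 21 counts. It was the only tested receptor with every r1r2V library above every V library (log2 fold change 0.50, SE 0.28, adjusted p = 0.684). Chrna3 and Chrnb1 overlapped between groups, with log2 fold changes of -0.22 and -0.01.

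Muscarinic receptors made 4.73 ± 0.219% of receptor FPKM in V (SD, n = 3), and all 5 were tested. Chrm4, coupled to Gi (chromosome 2, 91922189 to 91929835, plus strand), had 3.72, 3.27 and 3.11 CPM in V and 6.91, 4.42 and 3.50 in r1r2V. Replicates 1 and 4 of r1r2V lay above V and replicate 5 within it. This gave a log2 fold change of 0.55 (SE 0.25), a ratio of 1.47 with a 95% interval of 1.00 to 2.15, and the gene did not pass (adjusted p = 0.655). With single libraries left out it ran from 0.23 to 0.74. Striatal neurons are rich in Chrm4, and their marker sum was 344, 315 and 322 CPM in V and 371, 370 and 293 in r1r2V. None of its 5 markers was called and 3 were positive. The sum was thus highest in the r1r2V replicates where Chrm4 was highest, and its part in the result was not tested.

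Chrm1, coupled to Gq (chromosome 19, 8664005 to 8683606, plus strand), had 10.4, 10.99 and 10.9 CPM in V and 12.7, 6.72 and 12.7 in r1r2V. Replicates 1 and 5 of r1r2V lay above V and replicate 4 well below it, so the log2 fold change of -0.01 (SE 0.21) averages values on both sides of V. Chrm2, a Gi-coupled receptor, had a like low value in r1r2V replicate 4 (1.67 CPM, against 2.60 to 2.99 in V). Chrm3 and Chrm5, both Gq-coupled, had log2 fold changes of 0.14 and -0.43 with overlapping groups.

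Adenosine receptors made 12.1 ± 0.654% of receptor FPKM in V (SD, n = 3), most of it Adora1, the Gi-coupled receptor by which adenosine quiets neurons. Adora1 (chromosome 1, 134199215 to 134235457, minus strand) had 81.4, 82.0 and 91.6 CPM in V and 76.9, 68.8 and 91.9 in r1r2V. Replicates 1 and 4 of r1r2V lay below V and replicate 5 just above it (log2 fold change -0.10, SE 0.10, 95% interval of the ratio 0.795 to 1.09). Adora2a, coupled to Gs, had 1.58, 1.30 and 1.40 CPM in V and 2.26, 1.49 and 1.22 in r1r2V (log2 fold change 0.22, SE 0.28). Adora2b, also Gs-coupled, had 6.71, 7.27 and 6.92 CPM in V and 6.85, 6.55 and 9.79 in r1r2V (log2 fold change 0.15, SE 0.17). In each of these 3 genes the groups overlapped.

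Adora3, a Gi-coupled receptor found in the brain mainly in microglia, had the largest fold change of the tested receptors. It had 12, 3.88 and 11 expected counts in V and 29, 12.01 and 14 in r1r2V, which is 0.677, 0.225 and 0.698 CPM against 1.68, 0.689 and 0.816. The groups overlapped, and the ratio was 2.00 with a 95% interval of 0.954 to 4.18 (log2 fold change 1.00, SE 0.48, adjusted p = 0.660). Adora3 lies within Tmigd3 on the same strand of chromosome 3 (105904421 to 105908928) and shares all 4508 bp of its extent with it, and the estimation of counts gave 8.12 counts of V replicate 3 and 5.99 of r1r2V replicate 4 to Tmigd3. With both genes summed, an alternative chosen after seeing the data, the libraries had 0.677, 0.676 and 0.698 CPM in V and 1.68, 1.03 and 0.816 in r1r2V. The groups then no longer overlapped (log2 fold change 0.78, adjusted p = 0.643). The microglia markers summed to 122 to 128 CPM in V and 124 to 145 in r1r2V, with all 5 fold changes positive and 0 called, and r1r2V replicate 1, the highest for Adora3, had 124. The part of microglia in the Adora3 values was not tested.

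Mtnr1a, the Gi-coupled melatonin receptor through which melatonin is known to act on the SCN (chromosome 8, 45069107 to 45089233, plus strand), was near the limit of what could be counted. Its expected counts were 19, 14 and 11 in V and 11, 19 and 6 in r1r2V. These made 1.07, 0.789 and 0.698 CPM in V and 0.638, 1.09 and 0.350 in r1r2V, and r1r2V held both the highest and the lowest library. The log2 fold change of -0.30 (SE 0.41) had a 95% interval of the ratio from 0.432 to 1.53, and with single libraries left out it ran from -0.79 to 0.01. Replicate 5 of r1r2V, the lowest, was also the lowest for Vip, a peptide gene of the SCN core, at 11.4 CPM against 50.5 to 85.8 in the other libraries. Of the other SCN markers, Avp was highest in that library (384 CPM, against 160 to 360), Grp, Nms, Prok2, Lhx1 and Scg2 were lowest in it, and Six6, Six3, Rgs16 and Syt10 lay within the range of the others. What these marker values have to do with Mtnr1a was not tested.

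**Figure D3:**
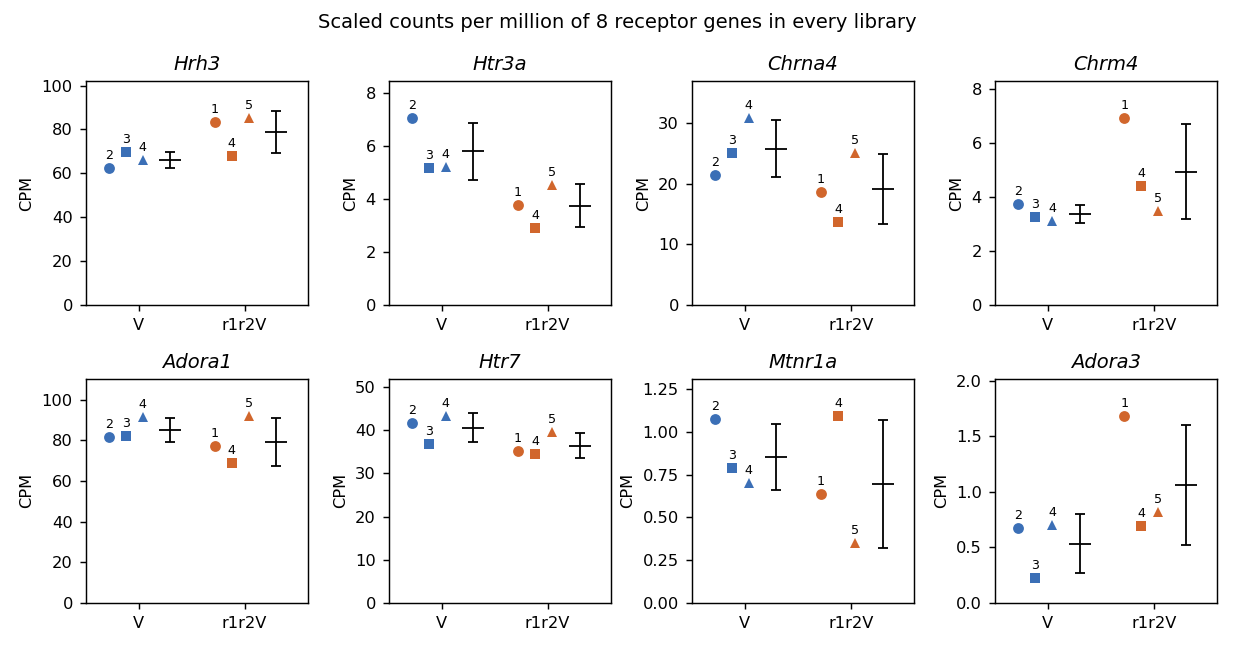
CPM of 8 receptor genes in every library, V in blue and r1r2V in orange, with replicate numbers above the points and the group mean and SD (n = 3) in black. Htr3a is the only gene shown whose groups do not overlap, and in each of Hrh3, Chrna4 and Chrm4 1 r1r2V library lies within the V range.

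FPKM values were also summed by transmitter and by coupling. The groups were apart only for the nicotinic and the ion channel sums, which share most of their genes. For single genes, all r1r2V libraries lay below V in 7.63% of all genes tested and above V in 6.87%. No such share was computed for sums of genes. The nicotinic subunits summed to 30.1, 30.4 and 31.4 FPKM in V and 27.4, 28.2 and 28.7 in r1r2V, with no overlap. With Htr3a and Htr3b added, the ion channels summed to 33.7, 33.1 and 34.2 in V and 29.3, 29.7 and 31.1 in r1r2V, again with no overlap. Chrna4 (5.85 and 4.32 FPKM), Htr3a (2.95 and 1.90) and Chrnb2 (18.1 and 17.7) had the largest differences of group means in that sum. The class sums are described without a test, and none of these genes passed by itself.

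Serotonin receptors overlapped barely, with 55.5, 51.3 and 53.0 FPKM in V and 49.6, 48.4 and 51.6 in r1r2V. Histamine receptors had 35.2, 37.6 and 36.2 in V and 44.5, 35.2 and 43.4 in r1r2V, a spread that follows Hrh3. Noradrenaline, dopamine, muscarinic, adenosine and melatonin receptor sums also overlapped. By coupling, the Gi, Gq and Gs classes had median log2 fold changes of -0.10, -0.01 and 0.08 over 15, 8 and 11 tested genes, and that of the 7 tested channel genes was -0.03.

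**Figure D4:**
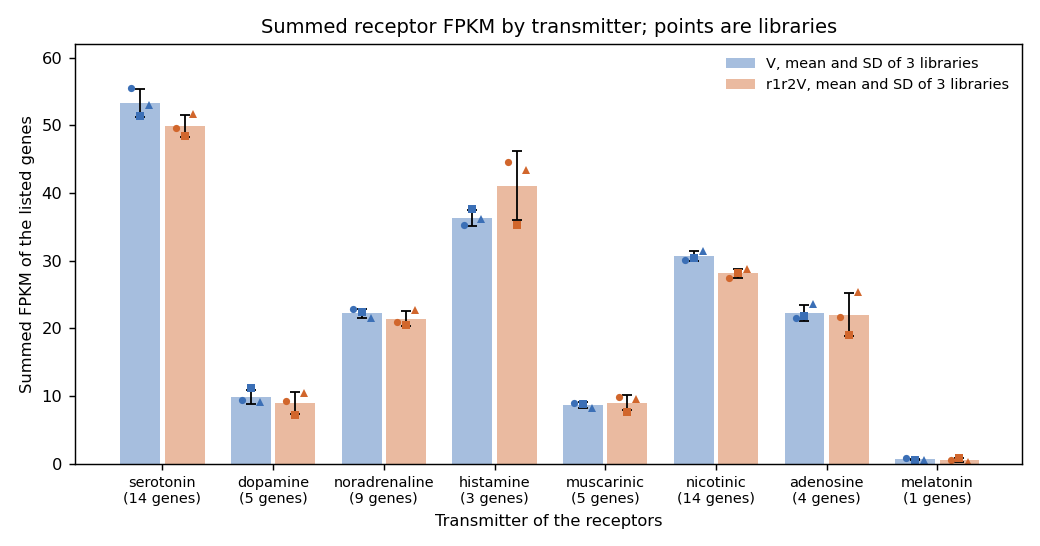
Summed FPKM of the listed receptor genes of each transmitter, as bars from 0 with the mean and SD of 3 libraries per group and 1 point per library. The nicotinic sums do not overlap between V and r1r2V, and the histamine sum is highest in r1r2V replicates 1 and 5.

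The 14 receptor genes that were not tested had 0 to 13 counts in any library. They were Chrna2, Chrna5, Chrna6, Chrna9, Chrna10, Chrnb3, Chrnb4, Chrne, Adra1d, Drd3, Drd4, Htr1f, Htr2b and Htr3b. Chrna6 and Chrnb3, neighbours on chromosome 8 whose subunits are known from dopamine neurons, had 11, 10 and 7 and 2, 11 and 6 counts in V and 6, 4 and 1 and 4, 1 and 1 in r1r2V. Chrna6 was thus lower in every r1r2V library than in any V library, and without the filter on low counts it was among 5 of 55 receptors with an unadjusted p under 0.05 (9.09%, beside 6.95% of all genes), none of them called. The 3 dopamine neuron markers, 0 of them called, summed to 75.8 to 80.0 CPM in V and 78.3 to 108 in r1r2V, with log2 fold changes of 0.39 for Th, 0.26 for Slc18a2 and -0.32 for Slc6a3. The part of such cells in the counts of Chrna6 and Chrnb3 was not tested. Chrnb4, in the cluster of Chrna5, Chrna3 and Chrnb4 on chromosome 9, had 8, 10 and 13 counts in V and 9, 6 and 7 in r1r2V. Drd4 had 0 counts in 4 libraries, and a count of 0 allows up to 3 counts in a library, counting error only.

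Genes of the same pathways outside the receptors gave the same absence of calls. The lists held 61 genes of transmitter synthesis, transport and breakdown, receptor accessory proteins and G-protein signalling, of which 51 were tested. None was called higher or lower by edgeR, DESeq2 or limma-voom, 7 had an unadjusted p under 0.05 (13.7%, beside 7.58% of all genes), and the median log2 fold change was -0.06 (16 positive, 35 negative; smallest adjusted p 0.407). The r1r2V libraries were all above V for 2 of them (3.92%, beside 6.87% of all genes) and all below for 7 (13.7%, beside 7.63%).

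In the monoamine list (14 tested, median -0.03), Hdc, the enzyme that makes histamine, had 13.3, 14.6 and 12.4 CPM in V and 9.40, 10.8 and 10.8 in r1r2V. All 3 r1r2V libraries lay below V (log2 fold change -0.38, SE 0.11, adjusted p = 0.407). Th, the first enzyme of dopamine synthesis, had 42.5, 37.0 and 37.7 CPM in V and 52.7, 58.9 and 41.7 in r1r2V (log2 fold change 0.39, SE 0.12, adjusted p = 0.438), with replicate 5 of r1r2V among the V libraries. Maob, which breaks down monoamines, had 46.3, 41.5 and 44.5 CPM in V and 48.0, 56.8 and 53.3 in r1r2V, with no overlap (log2 fold change 0.26, SE 0.08, adjusted p = 0.474). Slc18a2, the vesicular monoamine transporter, had 34.0, 35.5 and 40.2 CPM in V and 49.3, 47.6 and 34.3 in r1r2V, with replicate 5 again among V (log2 fold change 0.26, adjusted p = 0.667). Genes that mark the cells that send serotonin and noradrenaline were low in the punches, as Tph2 had 0.291 to 1.07 CPM over the 6 libraries and Dbh 0 to 4 counts.

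In the acetylcholine list (10 tested, median -0.09), Ache, which breaks down acetylcholine, had 213, 197 and 232 CPM in V and 183, 151 and 192 in r1r2V. The groups did not overlap, and replicate 4 of r1r2V was again the lowest (log2 fold change -0.29, SE 0.10, adjusted p = 0.514). Lypd6b, Lynx1 and Ly6h belong to the family of small proteins that bind nicotinic receptors. Lypd6b had 16.3, 12.5 and 18.7 CPM in V and 10.04, 12.8 and 12.6 in r1r2V (log2 fold change -0.42). For Lynx1 the values were 253, 271 and 297 CPM in V and 231, 220 and 271 in r1r2V (-0.19). Those of Ly6h were 413, 367 and 373 CPM in V and 380, 326 and 345 in r1r2V (-0.13). In these 3 genes the groups overlapped. Chat, which makes acetylcholine, had 5 to 11 counts per library and was not tested.

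In the adenosine list (9 tested, median -0.10), Entpd2, an ectoenzyme that breaks down extracellular ATP, had 24.9, 23.7 and 27.7 CPM in V and 20.1, 16.6 and 22.0 in r1r2V. No library overlapped between the groups (log2 fold change -0.38, SE 0.11, adjusted p = 0.407). Slc29a2, a nucleoside transporter, had 15.7, 15.1 and 17.3 CPM in V and 14.0, 11.6 and 13.5 in r1r2V (log2 fold change -0.30, SE 0.11, adjusted p = 0.571). Ada, adenosine deaminase, had 1.81, 1.41 and 2.09 CPM in V and 1.39, 1.21 and 1.34 in r1r2V. It was also below V in all r1r2V libraries (log2 fold change -0.42, SE 0.24). Slc29a1, another nucleoside transporter, had 30.9, 24.3 and 31.02 CPM in V and 25.8, 22.9 and 29.3 in r1r2V, with overlapping groups (log2 fold change -0.15).

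Aanat, of melatonin synthesis, had 0.959, 0.901 and 0.508 CPM in V and 0.580, 0.345 and 0.699 in r1r2V, with overlapping groups (log2 fold change -0.55, SE 0.38). Asmt, also of melatonin synthesis, had 1 count in r1r2V replicate 1 and 0 in the other libraries, and was not tested. Melatonin itself is not measured by these data. Of 17 genes of G proteins, receptor kinases and arrestins, all were tested, 0 had an unadjusted p under 0.05, and the log2 fold changes spanned -0.19 to 0.17. Gnai3, a subunit of Gi, had 54.0, 51.0 and 48.4 CPM in V and 50.8, 62.7 and 59.2 in r1r2V (log2 fold change 0.17). Gnai1, also of Gi, had 221, 216 and 214 CPM in V and 201, 282 and 238 in r1r2V (0.15). Both overlapped between groups. Gna11, of the Gq family, had 138, 138 and 137 CPM in V and 134, 128 and 120 in r1r2V (-0.11). Gnaz, of the Gi family, had 91.2, 90.6 and 90.7 CPM in V and 89.4, 86.2 and 83.6 in r1r2V (-0.07). For these last genes all r1r2V libraries lay below V, by small margins.

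REV-ERB proteins are known to bind the hexamer AGGTCA, often with a T before it, and CLOCK with BMAL1 binds the E-box CACGTG. These motifs and the cyclic AMP element TGACGTCA were searched on both strands of RefSeq promoters (GRCm38.p6), from 250 bases before to 50 bases after each annotated start, with 53 promoters for 43 of the receptor genes. AGGTCA was in 9 of the 53 (17%), against 16.3% of all 32851 promoters. TAGGTCA, which contains it, was in 2 (3.77%, against 2.61%), CACGTG in 4 (7.55%, against 7.15%) and TGACGTCA in 0 (against 1.79%). The shares were close to those of all promoters.

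The stretches around TAGGTCA in Chrnb2 and Htr6 and around CACGTG in the melatonin receptor gene are shown because they are the receptor promoters with the longer REV-ERB motif and the one E-box promoter of a receptor that carries a circadian hormone signal. Capitals mark the motif as read on the gene's strand, where TAGGTCA appears as its reverse complement, and it begins 205, 103 and 207 bases before the start. The stretches are chr3:89764786-89764882 (minus strand), chr4:139074841-139074937 (minus strand) and chr8:45068857-45068950 (plus strand).
Chrnb2: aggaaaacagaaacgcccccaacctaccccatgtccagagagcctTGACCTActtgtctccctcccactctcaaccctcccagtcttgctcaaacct
Htr6: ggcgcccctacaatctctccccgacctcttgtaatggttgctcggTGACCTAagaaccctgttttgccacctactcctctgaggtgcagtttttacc
Mtnr1a: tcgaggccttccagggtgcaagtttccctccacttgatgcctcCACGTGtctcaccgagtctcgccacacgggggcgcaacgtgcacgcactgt

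A match to these letters is a description of the sequence and not of a bound site. Beside the expression values, Chrnb2 had a log2 fold change of -0.03 (SE 0.07) and Htr6 one of -0.02 (SE 0.25), at 1.07 to 1.13 CPM in V and 0.986 to 1.15 in r1r2V. The other receptor genes with AGGTCA were Adra2c, Chrm5, Chrna5, Hrh1, Htr2b and Htr2c, and those with CACGTG besides Mtnr1a were Adra2a, Adra2c and Chrna7. All of these but Chrna5 and Htr2b were tested and none passed, and Chrm5 (-0.43) and Mtnr1a (-0.30) had the largest log2 fold changes, each with an interval that crosses 0.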

How the data were processed

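Gene-level RNA-seq tables of 6 libraries, 3 V and 3 r1r2V, were used. The authors deposited expected counts and FPKM values per gene, per the file headers. Tools named in the submitters' processing notes are RSEM 1.2.12, Bowtie2 2.2.5, HISAT2 2.0.4, GATK, DESeq2, Cufflinks 2.2.1 and StringTie 1.0.4, with build mm10. Neither their roles nor any use of strand in counting was given in the sources used here. Genes missing from a table were taken as 0 in that library.

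Expected counts were rounded, filtered (edgeR 4.0.16 filterByExpr, minimum count 10, R 4.3.3), scaled by TMM and compared by quasi-likelihood (glmQLFit, then glmQLFTest), with p-values adjusted by Benjamini-Hochberg over the 14438 genes tested and a threshold of 0.05. CPM values use the scaled library sizes. Standard errors and 95% intervals come from the same test. On counts simulated from these libraries for this comparison, over 14359 genes, the test recovered 4% of 1.2-fold, 74% of 1.5-fold, 92% of 2-fold and 100% of 4-fold changes, in genes of at least 1 CPM with equal spread in both groups, and 8.2% of its calls were wrong. More genes were changed there than were called in the real data, which makes the adjusted threshold easier to pass. The changed genes were also drawn from all genes of at least 1 CPM. Receptor intervals were wider, with 51.2% within 1.5-fold against 80.3% of all genes. The recovered shares are therefore not those of the receptors.

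The members and lists were chosen with earlier results of these data known. Values in every library are given for the 10 receptors with the highest mean FPKM, those with an unadjusted p under 0.05 (up to 5 each way) and receptors known for SCN phase shifting, and for up to 4 genes per pathway list by smallest p. For 1 tested receptor gene no value is reported here. Other genes were named after their values were seen. Alternatives were DESeq2 1.42.0, limma-voom (limma 3.58.1), RLE scaling, other filters, log2 of FPKM plus 1 or 0.1, a threshold of 0.1 and single libraries left out. Positions are RefSeq on GRCm38, and strands are those of GENCODE. Near-identical transcripts (95% identity over 0.5 of the shorter, BLAST+ 2.17.0) in the annotation were found for Adora3, Chrm1, Chrna1, Chrnb4, Drd5 and Htr1b, whose values are less certain.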

Additional observations from a re-analysis of the deposited data

How the results depend on the processing

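In every alternative run, 0 receptor genes and 0 pathway genes were called in either direction. The receptors' smallest adjusted p over the settings was 0.160, without r1r2V replicate 4. Their median log2 fold change ran from -0.055 to 0.0048. No paired analysis was possible because only replicate number 4 occurs in both groups. Over all genes, DESeq2 called 69 higher and 40 lower, and single libraries left out gave 19 to 52 higher and 7 to 24 lower; the cause was not tested. Of 259 alternative values for 20 receptor results, 244 kept their direction and side of the threshold and 15, in 11 genes, turned direction without passing, each when 1 library was left out. Their log2 fold changes without single libraries ran from -0.067 to 0.39 (Adora2a), -0.12 to 0.034 (Adra2a), -0.16 to 0.23 (Chrm1), -0.068 to 0.096 (Chrna7), -0.095 to 0.0068 (Chrnb2), -0.13 to 0.076 (Drd1), -0.26 to 0.027 (Drd2), -0.091 to 0.082 (Hrh1), -0.33 to 0.047 (Htr1b), -0.036 to 0.026 (Htr2c) and -0.79 to 0.010 (Mtnr1a). The sum of Adora3 and Tmigd3 was chosen after seeing the data. At this depth and with 3 libraries a group, most simulated 1.2-fold changes were missed, and no changes were simulated in genes under 1 CPM.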
